A study of Mus musculus with 24 samples.

Results

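The nuclear genes of respiratory complexes II, III, IV and V were examined in quadriceps RNA of dystrophin-deficient, gene-edited and wild-type mice. The members were all genes of the count tables whose symbols begin as those of succinate dehydrogenase (Sdha to Sdhd), ubiquinol-cytochrome c reductase (Uqcr), cytochrome c oxidase (Cox4 to Cox8) or ATP synthase (Atp5) subunits do. This rule, which uses names alone, found 47 of 24062 genes: 4 of complex II, 8 of complex III, 18 of complex IV and 17 of complex V. Atp5s, Atp5sl and Cox7a2l match by name but are not core subunits. In the counts by complex they stand with the complex of their name. Atp5s resembles a coupling factor of the ATP synthase, Atp5sl is also called Dmac2 and takes part in complex I assembly, and Cox7a2l helps to join respiratory complexes into supercomplexes. Cyc1, Ndufa4 and other subunits named differently are described apart, and the subunits encoded in mitochondrial DNA were not analysed here.

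The respiratory chain passes electrons to oxygen and pumps protons across the inner mitochondrial membrane, and the ATP synthase uses their return to make ATP. Complex II hands electrons from succinate to ubiquinone, complex III carries them on to cytochrome c, complex IV reduces oxygen, and complex V is the ATP synthase. Several small complex IV subunits have a heart and skeletal muscle form (Cox6a2, Cox7a1 and Cox8b) and a form made in most tissues (Cox6a1, Cox7a2 and Cox8a), and muscle exchanges one for the other as it matures.

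The RNA-seq data covered 24 libraries in 9 groups, from quadriceps of C57BL/6 mice of 3 genotypes at 3 stages. Corrected mice carry the delEx44 deletion in the dystrophin gene Dmd and received adeno-associated virus of serotype 9 (AAV9) with SpCas9 and a guide RNA on postnatal day 4. DelEx44 mice carry the deletion with no vector named in the labels, and WT mice are the wild type. At 4 weeks each genotype had 3 sedentary mice, and corrected mice had received 8e13 vector genomes per kg of scAAV9-sgRNA and as many of ssAAV9-SpCas9. The run groups held 2 mice each, aged 8 weeks, after 1 month of treadmill running every other day on a decline of 15 degrees at 12 m per min; corrected mice of this stage had the same doses. The 18-month groups were 3 mice each, kept sedentary, and corrected mice had received 2.5e14 vector genomes per kg of ssAAV9-sgRNA and 5e13 of ssAAV9-SpCas9 on day 4. Running cannot be told apart from growth between 4 and 8 weeks, and in corrected mice age cannot be told apart from vector dose and form. Each library is 1 mouse as far as the labels say, so p-values measure the spread between these mice.

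Libraries held 30.6 to 38.1 M counts in the 4-week and run table and 23.1 to 31.3 M counts in the 18-month table, of which the members took 1.76 to 2.33% and 1.28 to 1.75%. Dmd averaged 161, 92.1 and 235 CPM (counts scaled to a common library total) in corrected muscle at 4 weeks, after running and at 18 months, 39.7, 41.3 and 85.7 CPM in delEx44 muscle, and 217, 154 and 371 CPM in WT muscle. In markers of other cells, several libraries stood apart. WT 4-week replicate 3 had 928 CPM of summed white adipocyte markers against 420 and 475 CPM in the other WT mice of that age, and 240 CPM of blood markers against 3.84 and 7.26 CPM. WT run replicate 1 had 1490 CPM of white adipocyte markers against 419 CPM in its partner, and corrected run replicate 1 had 1405 against 607 CPM. Ucp1, a brown adipocyte marker, was at 39.2, 14.3 and 0.726 CPM in corrected 4-week replicates 1 to 3. It was at 13.00 CPM in WT 4-week replicate 3 against 0.819 and 0 CPM in the other WT mice of that age. After running it was at 40.9 and 9.05 CPM in corrected and at 23.4 and 0 CPM in WT mice. In delEx44 mice it was at 0.0213 to 1.09 CPM at 4 weeks and at 0 and 0.111 CPM after running. The part of brown adipocytes in the members' levels was not tested. Corrected 18-month replicate 2 had 1534 CPM of slow fibre markers against 142 and 424 CPM in the other corrected mice of that age, and 426 CPM of macrophage markers against 976 and 1379 CPM. CPM values here are divided by library sizes that were scaled with trimmed means of M-values (TMM), and fold changes, standard errors (SE) and adjusted p-values come from edgeR's quasi-likelihood test with Benjamini-Hochberg adjustment over all genes tested, read at 0.05.

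Of the 47 members, 45 were tested at 4 weeks and after running and 44 at 18 months. Cox7b2 and Cox8c, forms of complex IV subunits known from testis, never passed 1 count in a library, and Cox6b2, another testis form, had 2 to 30 counts and was tested only in the younger mice. Atp5l had 30 to 83 counts per library, few for a subunit of a complex whose other core subunits had 180 or more; processed pseudogenes named after it and after Atp5c1, Atp5k and Uqcrh exist in the annotation, so counts of these 4 genes are uncertain. Exons of 12 members overlap another gene, 11 of them on the opposite strand, Cox6a2 and Cox5a among them, and the strand setting of the counting was not given in the sources used here.

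The promoters of the muscle form and general form genes were read beside one another because these pairs of genes are used in different tissues. The comparison of forms below rests on counts, not on these letters. Cox6a2 had no promoter window in the source used, so Cox6a1 is shown without its partner. The windows below are the 250 bases before the transcription start, from RefSeq on GRCm38.p6, each written 5′ to 3′ on the strand of its gene. Capitals mark CANNTG, the E-box letters bound by muscle transcription factors such as MyoD, in the first 4 windows, and the paired letters bound by nuclear respiratory factor 1, GCGCA and GCGC with 1 base between, in the last.
Cox8b promoter, chr7:140900447-140900696, minus strand: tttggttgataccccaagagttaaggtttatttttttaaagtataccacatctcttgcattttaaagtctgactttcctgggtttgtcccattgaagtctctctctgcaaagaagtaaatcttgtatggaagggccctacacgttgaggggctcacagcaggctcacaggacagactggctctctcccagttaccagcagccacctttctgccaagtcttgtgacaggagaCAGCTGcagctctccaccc
Cox8a promoter, chr19:7217617-7217866, minus strand: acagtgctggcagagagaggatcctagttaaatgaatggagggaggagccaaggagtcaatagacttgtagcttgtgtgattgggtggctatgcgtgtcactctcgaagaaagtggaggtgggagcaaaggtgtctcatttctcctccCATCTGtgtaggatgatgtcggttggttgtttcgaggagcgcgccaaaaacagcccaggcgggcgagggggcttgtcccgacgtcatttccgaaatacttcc
Cox7a1 promoter, chr7:30183921-30184170, plus strand: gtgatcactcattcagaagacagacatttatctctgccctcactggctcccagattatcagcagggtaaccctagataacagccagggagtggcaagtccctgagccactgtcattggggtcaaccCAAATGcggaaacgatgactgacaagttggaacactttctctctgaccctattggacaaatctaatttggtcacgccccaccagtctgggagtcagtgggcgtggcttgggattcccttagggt
Cox7a2 promoter, chr9:79759854-79760103, minus strand: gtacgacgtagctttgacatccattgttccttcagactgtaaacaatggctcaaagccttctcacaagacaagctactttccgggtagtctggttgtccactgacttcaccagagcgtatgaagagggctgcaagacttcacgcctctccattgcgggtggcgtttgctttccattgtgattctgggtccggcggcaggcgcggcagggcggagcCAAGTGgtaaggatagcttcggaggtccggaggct
Cox6a1 promoter, chr5:115348959-115349208, minus strand: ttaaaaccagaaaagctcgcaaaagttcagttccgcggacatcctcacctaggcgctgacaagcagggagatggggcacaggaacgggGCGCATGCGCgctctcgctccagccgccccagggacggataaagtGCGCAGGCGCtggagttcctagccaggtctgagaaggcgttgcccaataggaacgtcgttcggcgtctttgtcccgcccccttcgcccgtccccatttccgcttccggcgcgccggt

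The window of Cox6a1 held 2 copies of the GCGCA and GCGC pair and no CANNTG, and each of the other 4 windows held 1 CANNTG and no such pair. Promoters matched 37 of the 47 members, with 41 windows. Both strands were searched; AAGGTCA, bound by estrogen-related receptors, can share its last bases with the start of CANNTG. The GCGCA and GCGC pair was in 7 of the 41 windows (17.1%), those of Atp5c1, Atp5g2, Atp5h, Atp5k, Cox6a1, Sdha and Sdhd, against 3.74% of all 32851 windows of this length. AAGGTCA was in 2 (4.88%, Atp5g3 and Atp5l) against 4.08%, and CANNTG was in 27 (65.9%) against 66.2%. These are matches of letters only.

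With TMM scaling, genes of all 4 complexes were lower in delEx44 than in WT muscle at 4 weeks, and corrected muscle stood near WT. Against WT, 33 of the 45 tested members fell in delEx44 muscle and 1 rose, where 25.0% of all 15013 genes tested fell and 25.2% rose. The members' median log2 fold change was -0.34 and that of all genes -0.00. With total counts and no TMM factor, described below, the members' median was 0.06. By complex, 3 of 4 members of complex II fell, 7 of 8 of complex III, 10 of 16 of complex IV and 13 of 17 of complex V. In 32 members every delEx44 library was below every WT library, which held for 28.7% of all genes. In bulk tissue, fewer cells of a type and less RNA per cell cannot be told apart.

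Complex II showed this in its flavoprotein subunit Sdha, which oxidises succinate. Sdha had 1195, 1146 and 1305 CPM in corrected muscle, 827, 835 and 884 CPM in delEx44 muscle and 1376, 1281 and 1100.0 CPM in WT muscle. Its delEx44 libraries were below all libraries of the other genotypes, and corrected and WT libraries overlapped. The log2 fold change was -0.56 ± 0.09 (SE; adjusted p = 0.000304) for delEx44 against WT and 0.52 ± 0.09 (adjusted p = 0.000669) for corrected against delEx44. Sdhc, a membrane anchor of the complex, had 240.1, 235 and 255 CPM in corrected muscle, 189.9, 195 and 201 CPM in delEx44 muscle and 263, 264 and 227 CPM in WT muscle, again with delEx44 lowest and no overlap. It fell by 0.36 on the log2 scale in delEx44 against WT (adjusted p = 0.00238). Sdhb, the iron-sulfur subunit, fell as well (-0.36 ± 0.11, adjusted p = 0.0165), whereas the second anchor Sdhd was at -0.19 ± 0.11 and did not pass (adjusted p = 0.158).

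In complex III, Uqcrb, a small subunit near the quinone site, had 363, 349 and 371 CPM in corrected muscle, 264, 247 and 299.7 CPM in delEx44 muscle and 370.0, 389 and 340.0 CPM in WT muscle. Uqcrc1, a core protein of the complex, had 659, 658 and 723 CPM in corrected muscle, 499, 468 and 529 CPM in delEx44 muscle and 760.3, 753 and 598 CPM in WT muscle. In both genes the 3 delEx44 libraries lay below all others. DelEx44 against WT gave -0.44 ± 0.09 for Uqcrb (adjusted p = 0.00124) and -0.50 ± 0.11 for Uqcrc1 (adjusted p = 0.0022). The hinge protein gene Uqcrh was the 1 member of complex III that did not pass (-0.19 ± 0.10, adjusted p = 0.13).

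In complex IV, outside the tissue forms, Cox5a had 525, 504 and 561 CPM in corrected muscle, 366, 368 and 408 CPM in delEx44 muscle and 554, 553 and 491 CPM in WT muscle. Cox5b had 332, 318 and 344 CPM in corrected muscle, 239, 230.4 and 251 CPM in delEx44 muscle and 326, 335 and 297 CPM in WT muscle. Both are regulatory or structural subunits present in all tissues, and in both delEx44 was lowest in every library. They fell in delEx44 against WT, Cox5a by 0.48 (adjusted p = 0.000457) and Cox5b by 0.41 (adjusted p = 0.000882) on the log2 scale. Cox7b, Cox7a2, Cox7a2l, Cox6a1 and Cox6b2 did not pass in this comparison, and Cox7a2l was at 0.03 ± 0.08, with 66.9 ± 5.42 CPM in delEx44 and 65.6 ± 0.409 CPM in WT (SD, n = 3 each).

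In complex V, Atp5c1, the gamma subunit of the rotor, had 855, 822 and 923 CPM in corrected muscle, 608, 591 and 656 CPM in delEx44 muscle and 904, 946 and 794 CPM in WT muscle. Atp5s, of low level, had 17.4, 17.3 and 17.6 CPM in corrected muscle, 12.8, 10.7 and 14.1 CPM in delEx44 muscle and 17.3, 18.6 and 16.4 CPM in WT muscle. The delEx44 libraries were the lowest in both. DelEx44 against WT gave -0.51 ± 0.10 (adjusted p = 0.000731) for Atp5c1 and -0.47 ± 0.09 (adjusted p = 0.000902) for Atp5s. The alpha and beta subunit genes Atp5a1 and Atp5b, the members with the highest CPM, averaged 1959 and 2579 CPM in delEx44. In WT they averaged 2662 and 3467 CPM, and both fell in delEx44 (adjusted p = 0.00299 and 0.00245). Atp5k, Atp5g3, Atp5j2 and Atp5l did not pass.

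**Figure D1:**
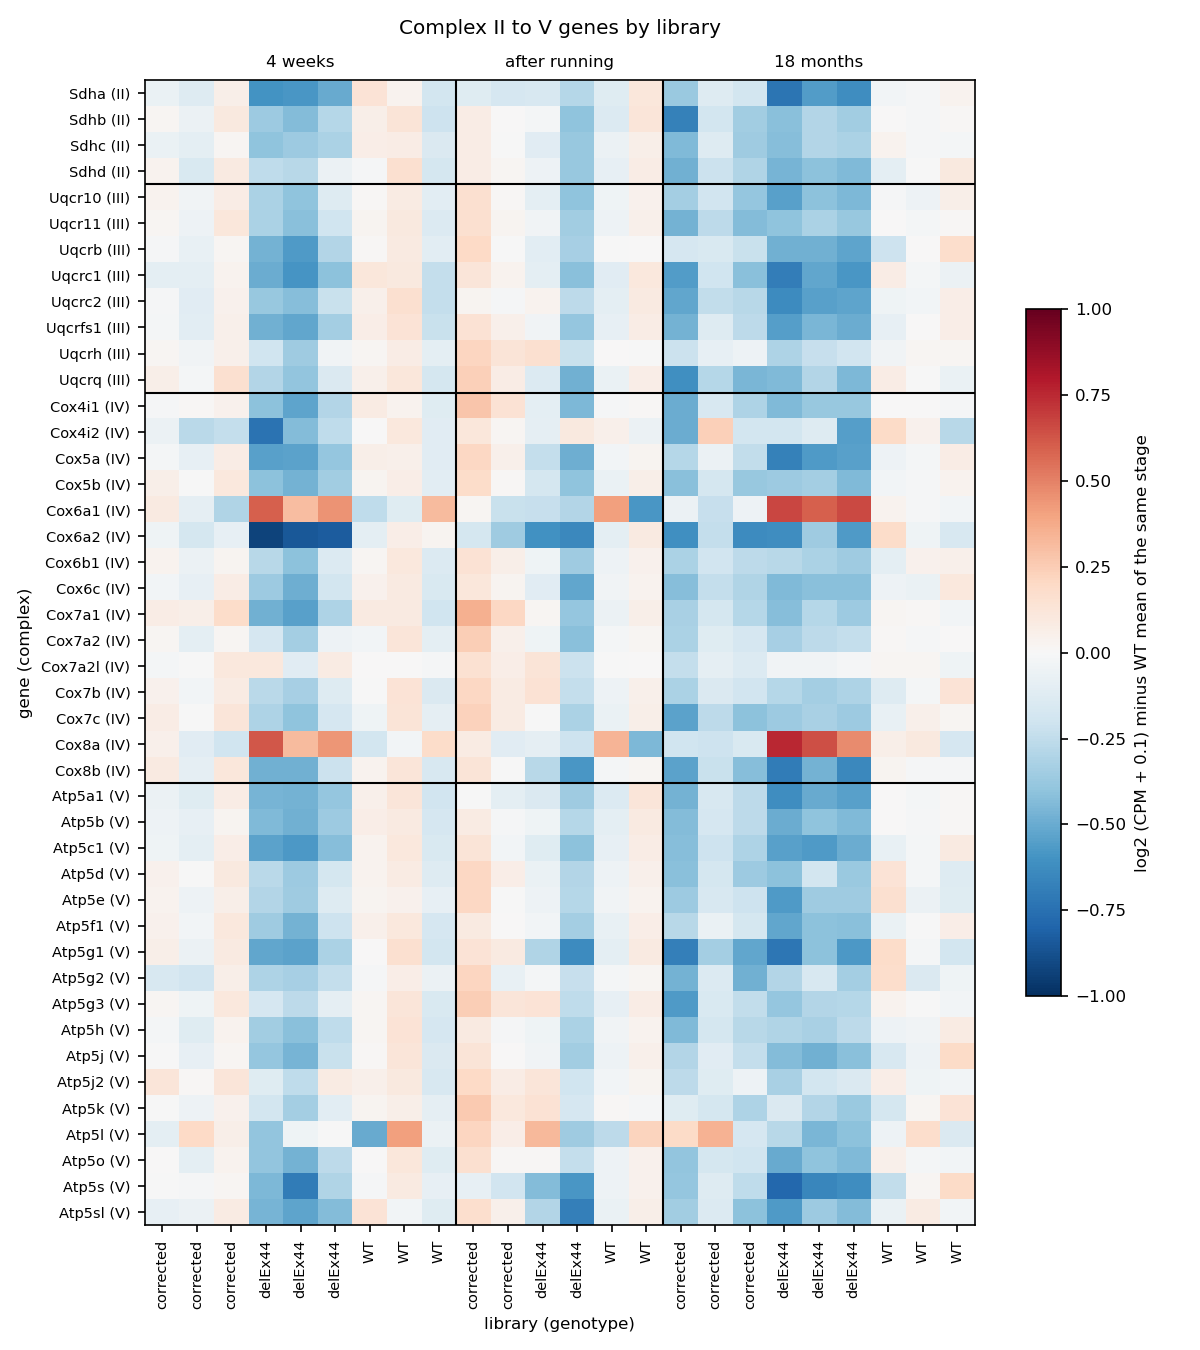
Levels of 44 member genes, as log2(CPM + 0.1) minus the mean of the WT libraries of the same stage, one column per library (corrected, delEx44, WT within each of 4 weeks, after running and 18 months) and one row per gene ordered by complex; Cox6b2, Cox7b2 and Cox8c are left out for low counts. With TMM scaling most rows are below WT in delEx44 at 4 weeks and 18 months, with the tissue forms Cox6a1 and Cox8a above it; with total-count scaling the members' median at 4 weeks was 0.06.

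Corrected muscle at 4 weeks differed from delEx44 muscle in 32 members that were higher and 1 that was lower, where 22.1% of all genes were higher and 24.2% lower. These are 3 members of complex II, 7 of III, 10 of IV and 12 of V, with the members' median at 0.33 and that of all genes at -0.01. This comparison and that of delEx44 with WT share the delEx44 libraries. Against WT, corrected muscle at 4 weeks had 0 of 45 members past the threshold in edgeR's test and 0 in DESeq2's Wald test. At an unadjusted p under 0.05 there were 0 members, against 1497 of all 15013 genes. Of all genes, 0.00% passed in edgeR. Members ranged from -0.19 (Cox4i2, a form induced by low oxygen) to 0.10 (Cox7a1) on the log2 scale, with a median of -0.01.

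The plain direction of these genes depended on how libraries were scaled. A change of scaling shifts all genes of a comparison nearly alike, so the gap between members and all genes cannot test the scaling. With total counts and no TMM factor, the median of all genes moved to 0.39 in delEx44 against WT at 4 weeks, the members' median was 0.06, and 4 members were called higher and 1 lower; the gap between the members and all genes was -0.34 with either scaling. Without WT replicate 2, 20 members passed in delEx44 against WT, and without delEx44 replicate 2, 22 passed, out of 34 with all libraries. Other tissue components differed between the same groups. The 12 fibre markers summed to 204539 to 231955 CPM in corrected, 111430 to 142861 CPM in delEx44 and 232484 to 258586 CPM in WT libraries, with 10 of 12 lower in delEx44 than in WT. The 12 macrophage markers summed to 714 to 978, 2031 to 3045 and 462 to 516 CPM in corrected, delEx44 and WT libraries, with 11 of 12 higher in delEx44. Of 7 immature fibre markers 6 were higher and 1 lower in delEx44 than in WT, and of 8 fibroblast markers 5 were higher. The summed immature fibre markers were nevertheless lower in delEx44. They came to 6901 to 7981, 3567 to 4131 and 6567 to 7747 CPM in corrected, delEx44 and WT libraries. The part of these in the members' levels was not tested.

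The widest contrast within the members was between the tissue forms of complex IV. Cox6a2, the muscle form of subunit VIa, lies on chr7:128205435-128206387 on the minus strand (GENCODE vM21, GRCm38), and Cox6a1, the general form, on chr5:115345642-115348981. At 4 weeks Cox6a2 had 689, 629 and 670.1 CPM in corrected muscle, 373, 395 and 399.6 CPM in delEx44 muscle and 664, 742 and 724 CPM in WT muscle. Cox6a1 had 38.1, 33.6 and 28.9 CPM in corrected muscle, 54.0, 44.4 and 48.7 CPM in delEx44 muscle and 29.9, 32.8 and 44.4 CPM in WT muscle. The muscle form was lowest in delEx44 with no overlap; the general form was highest in delEx44 and overlapped WT only through WT replicate 3. Cox6a2 fell in delEx44 against WT (-0.87 ± 0.08, adjusted p = 2.95e-06), the change furthest from 0 among the members, and Cox6a1 was at 0.46 ± 0.22 (adjusted p = 0.11). Without WT replicate 3, the library with high blood and white adipocyte markers, Cox6a1 was at 0.64 with an adjusted p of 0.045. Per kb of exon, Cox6a2 averaged 974, 572 and 1044 CPM and Cox6a1 47.8, 69.8 and 50.9 CPM in corrected, delEx44 and WT muscle.

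Cox8b and Cox8a are the muscle and general forms of subunit VIII, on chr7:140898945-140900446 and chr19:7215153-7217616, both on the minus strand. Cox8b had 358, 317 and 364 CPM in corrected muscle, 242, 241 and 291 CPM in delEx44 muscle and 344, 365 and 301 CPM in WT muscle at 4 weeks. Cox8a had 47.9, 42.8 and 40.3 CPM in corrected muscle, 71.1, 57.7 and 62.8 CPM in delEx44 muscle and 40.8, 45.3 and 52.6 CPM in WT muscle. The delEx44 libraries were the lowest in Cox8b and the highest in Cox8a, without overlap. Cox8a was the 1 member that rose in delEx44 against WT (0.46 ± 0.17, adjusted p = 0.0383) and the 1 member lower in corrected against delEx44 (-0.55 ± 0.17, adjusted p = 0.0198). Its rise did not pass without WT replicate 1 or 2 or without delEx44 replicate 1 or 3, with adjusted p between 0.066 and 0.13, and its fall in corrected muscle did not pass without delEx44 replicate 1, corrected replicate 2 or corrected replicate 3. Cox8b fell in delEx44 (-0.39 ± 0.11, adjusted p = 0.00804) and was at 0.01 with total-count scaling.

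Cox7a1 and Cox7a2, the forms of subunit VIIa on chr7:30184144-30186078 (plus strand) and chr9:79755361-79759878 (minus strand), followed another course. Cox7a1 had 235, 232 and 253 CPM in corrected muscle, 160.1, 153 and 181 CPM in delEx44 muscle and 237, 237 and 195 CPM in WT muscle at 4 weeks. Cox7a2 had 184, 170.2 and 184 CPM in corrected muscle, 162, 144 and 176 CPM in delEx44 muscle and 178, 197 and 169.9 CPM in WT muscle. Cox7a1 was lowest in every delEx44 library, whereas Cox7a2 overlapped between all genotypes. Cox7a1 fell in delEx44 against WT (-0.44 ± 0.11, adjusted p = 0.00466), and the general form Cox7a2 was at -0.18 ± 0.10 (adjusted p = 0.159), below WT on average where Cox6a1 and Cox8a were above. With total-count scaling Cox6a2 stayed lower in delEx44 (-0.47, adjusted p = 8.2e-05), Cox7a1 was at -0.04, and Cox6a1 and Cox8a were higher at 0.85 and 0.86.

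**Figure D2:**
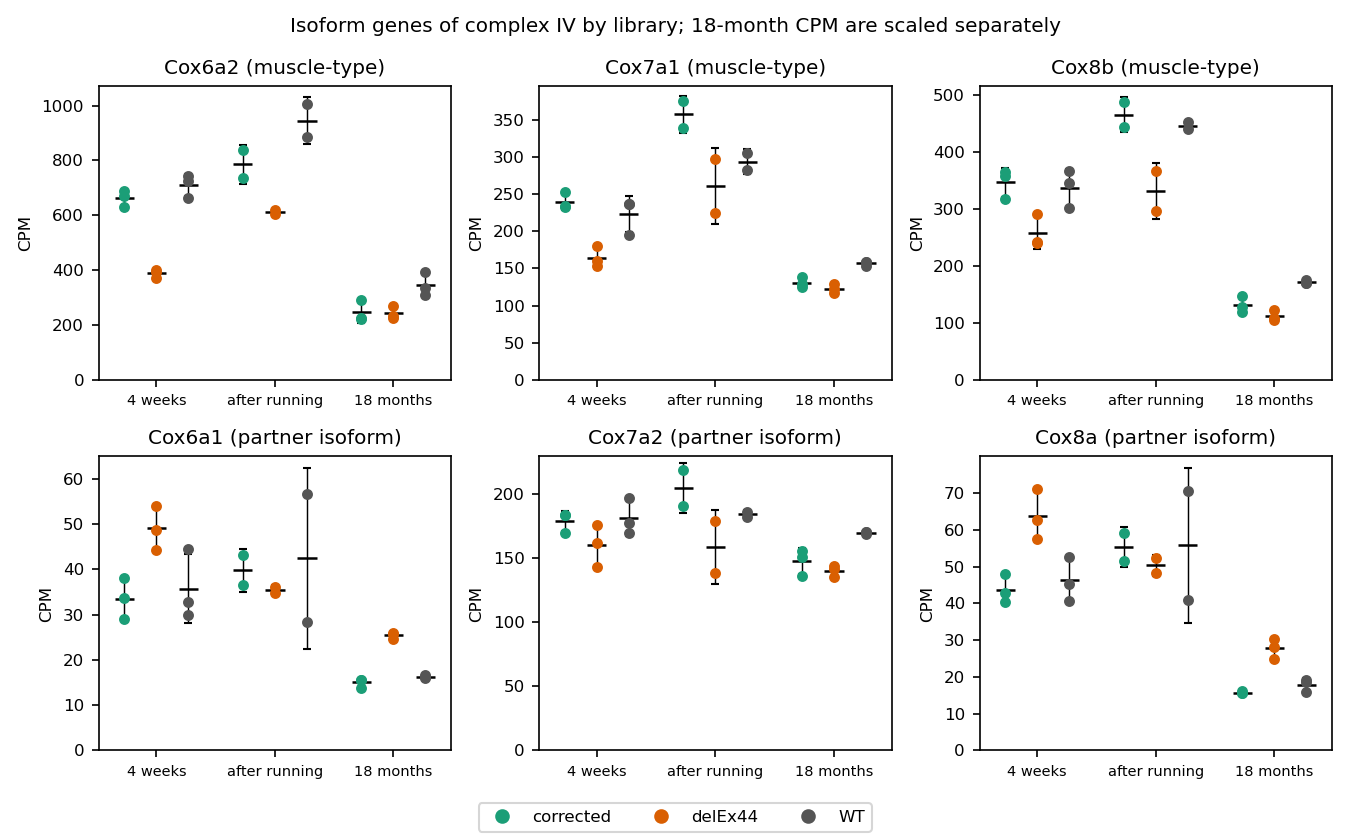
CPM of the 3 muscle forms and 3 general forms of complex IV subunits in every library (points), with group means and SD as lines, for corrected, delEx44 and WT side by side at 4 weeks, after running and at 18 months. At 4 weeks the delEx44 libraries are lowest in Cox6a2, Cox7a1 and Cox8b and highest in Cox8a (57.7 to 71.1 CPM), and WT run replicate 1 is high in Cox6a1 and Cox8a; these levels use TMM scaling, and with total counts Cox8b at 4 weeks was at 0.01 in delEx44 against WT.

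The relation between the forms of one subunit was then measured as a ratio within each library, which does not depend on the scaling of libraries. The ratio is of counts, without correction for length, so it is read between groups only. At 4 weeks the Cox6a2/Cox6a1 ratio averaged 20.0 ± 2.77 in corrected, 8.00 ± 1.01 in delEx44 and 20.4 ± 3.52 in WT muscle (SD, n = 3 each). After running it averaged 19.8, 17.2 and 25.5 in corrected, delEx44 and WT muscle (n = 2 each), with WT libraries at 15.6 and 35.4. At 18 months it averaged 16.6 ± 3.92, 9.58 ± 1.22 and 21.2 ± 2.15 (n = 3 each) in the same order. The delEx44 libraries were below all corrected and WT libraries at 4 weeks and 18 months, and lay between the WT libraries after running. The Cox8b/Cox8a ratio ran alike, with 7.97 ± 0.916, 4.07 ± 0.620 and 7.40 ± 1.48 at 4 weeks in corrected, delEx44 and WT muscle, and 8.28 ± 0.997, 4.08 ± 0.526 and 9.59 ± 0.941 at 18 months. After running it averaged 8.41, 6.56 and 8.61, and the delEx44 libraries at 6.99 and 6.14 overlapped WT run replicate 1 at 6.20. The Cox7a1/Cox7a2 ratio was 1.34, 1.03 and 1.23 at 4 weeks, 1.74, 1.64 and 1.59 after running and 0.888, 0.874 and 0.924 at 18 months.

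Averaged over the 3 stages, the log2 Cox6a2/Cox6a1 ratio was lower by 0.98 in delEx44 than in WT (difference -0.98, exact permutation test within stages, two-sided, p = 0.0025, adjusted p = 0.00563 over the 9 ratio tests). The log2 Cox8b/Cox8a ratio differed by -0.81 between delEx44 and WT (exact permutation p = 0.00167, adjusted p = 0.005). Corrected muscle had higher ratios than delEx44 muscle in all 3 pairs, by 0.77 for Cox6a2/Cox6a1 and 0.79 for Cox8b/Cox8a (exact permutation p = 0.000833 each, the smallest these arrangements allow, adjusted p = 0.00375), and by 0.16 for Cox7a1/Cox7a2 (exact permutation p = 0.00667, adjusted p = 0.012). Cox7a1/Cox7a2 differed by -0.10 between delEx44 and WT and did not pass (exact permutation p = 0.0408, adjusted p = 0.0613). Corrected and WT differed by -0.21, 0.07 and -0.02 in the Cox6a2, Cox7a1 and Cox8b ratios (exact permutation adjusted p = 0.371, 0.154 and 0.893). Without WT run replicate 1, in which both general forms and the white adipocyte markers were high, the Cox6a2/Cox6a1 difference of corrected and WT was -0.41 (exact permutation adjusted p = 0.0471). In the delEx44 against WT comparison the difference in log2 Cox6a2/Cox6a1 was -1.34, -0.45 and -1.15 at 4 weeks, after running and at 18 months, that in log2 Cox8b/Cox8a was -0.85, -0.34 and -1.24, and that in log2 Cox7a1/Cox7a2 was -0.25, 0.05 and -0.08.

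**Figure D3:**
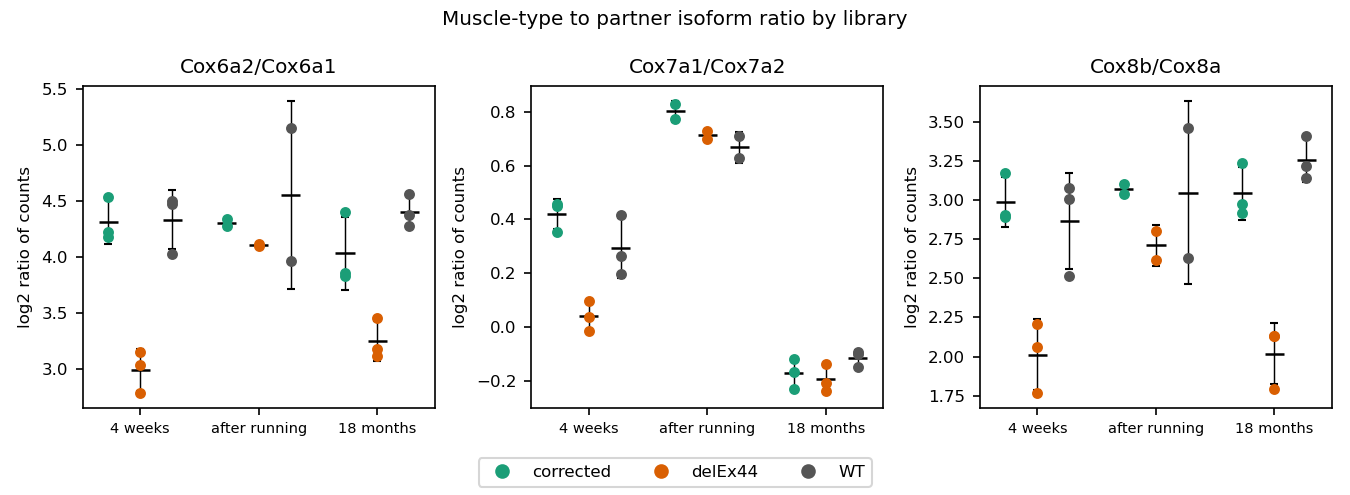
Log2 ratio of counts of each muscle form to its general form in every library (points) with group mean and SD (lines), for corrected, delEx44 and WT at 4 weeks, after running and at 18 months. The delEx44 libraries lie apart below the others at 4 weeks and 18 months for Cox6a2/Cox6a1 and Cox8b/Cox8a, and the Cox7a1/Cox7a2 ratios overlap at 18 months.

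After 1 month of downhill running, at 8 weeks, the muscle forms Cox6a2 and Cox8b were lower in delEx44 than in WT muscle, and Cox7a1 did not pass. In delEx44 against WT, 7 of 45 members fell and 0 rose, where 14.2% of all genes fell and 14.9% rose, so the share that fell was close to that of all genes; the members' median was -0.20. The 7 were Cox6a2 (-0.63 ± 0.10, adjusted p = 0.000508), Cox8b, Cox5a and Cox5b of complex IV, Atp5g1, a gene for the c-ring subunit of complex V, and Atp5s and Atp5sl. Cox6a2 had 836 and 736 CPM in corrected muscle, 619 and 603 CPM in delEx44 muscle and 884 and 1005 CPM in WT muscle. Cox8b had 486 and 443 CPM in corrected muscle, 366 and 297 CPM in delEx44 muscle and 439 and 451 CPM in WT muscle. In both genes the delEx44 libraries were the lowest, and corrected overlapped WT in Cox8b but not in Cox6a2. Cox8b, Cox5a and Cox5b did not pass without WT run replicate 1, WT run replicate 2 or delEx44 run replicate 2. Atp5g1 did not pass without WT run replicate 2 or delEx44 run replicate 2. Each of these fits leaves 1 mouse in a group. Without delEx44 run replicate 2, Cox8b, Cox5a, Cox5b and Atp5g1 were at -0.28, -0.24, -0.18 and -0.30. Cox7a1 had 375 and 339.6 CPM in corrected muscle, 297 and 225 CPM in delEx44 muscle and 282 and 305 CPM in WT muscle, with delEx44 and WT overlapping (-0.17 ± 0.13, adjusted p = 0.366).

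The general forms did not stand higher in delEx44 at this stage. Cox6a1 had 43.2 and 36.4 CPM in corrected muscle, 36.1 and 34.7 CPM in delEx44 muscle and 56.6 and 28.3 CPM in WT muscle. Cox8a had 59.2 and 51.5 CPM in corrected muscle, 52.4 and 48.3 CPM in delEx44 muscle and 70.7 and 40.9 CPM in WT muscle. In both genes the WT libraries lay on either side of the delEx44 libraries, and the high one was replicate 1, with the most white adipocyte marker counts. Cox7a2 had 219 and 191 CPM in corrected muscle, 179.6 and 138 CPM in delEx44 muscle and 183 and 187 CPM in WT muscle, with corrected highest, and rose in corrected against delEx44 (0.37 ± 0.13, adjusted p = 0.0499). It did not pass without delEx44 run replicate 2 (0.19, adjusted p = 0.358) or without corrected run replicate 1 (0.26, adjusted p = 0.302).

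Corrected against delEx44 after running gave 12 members higher and 0 lower, where 10.8% of all genes were higher and 12.4% lower; all 45 fold changes were positive, with a median of 0.28. The 12 were Cox4i1, Cox5a, Cox5b, Cox6a2, Cox7a1, Cox7a2 and Cox8b of complex IV, Uqcrq of complex III, and Atp5d, Atp5g1, Atp5s and Atp5sl. Cox5a had 702 and 628 CPM in corrected muscle, 514 and 433 CPM in delEx44 muscle and 594 and 619 CPM in WT muscle, with delEx44 lowest and corrected highest in every library (0.49 ± 0.11, adjusted p = 0.00583 for corrected against delEx44). Cox5a was at 0.37 without delEx44 run replicate 2 and at 0.41 without corrected run replicate 1, and passed in neither fit. Against WT, corrected muscle had 0 of 45 members past the threshold in edgeR's test and 0 in DESeq2's Wald test. Of all genes, 0.0200% passed in edgeR. At an unadjusted p under 0.05 there was 1 member (Cox6a2, -0.26 ± 0.10), against 1455 of all 15013 genes. These counts moved with single mice: delEx44 against WT gave 14 without delEx44 run replicate 1, 2 without delEx44 run replicate 2, 4 without WT run replicate 1 and 2 without WT run replicate 2, and corrected against delEx44 gave 28, 1 and 1 without delEx44 run replicate 1, delEx44 run replicate 2 and corrected run replicate 1. With total-count scaling the counts were 3 lower and 7 higher, and with only the compared groups in the fit they were 2 and 0. Fibre markers summed to 187464 to 215295, 163494 to 175869 and 201578 to 201680 CPM and macrophage markers to 387 to 528, 1320 to 1377 and 364 to 373 CPM in corrected, delEx44 and WT libraries, with 1 of 12 fibre markers lower and 11 of 12 macrophage markers higher in delEx44 than in WT; their part was not tested.

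**Figure D4:**
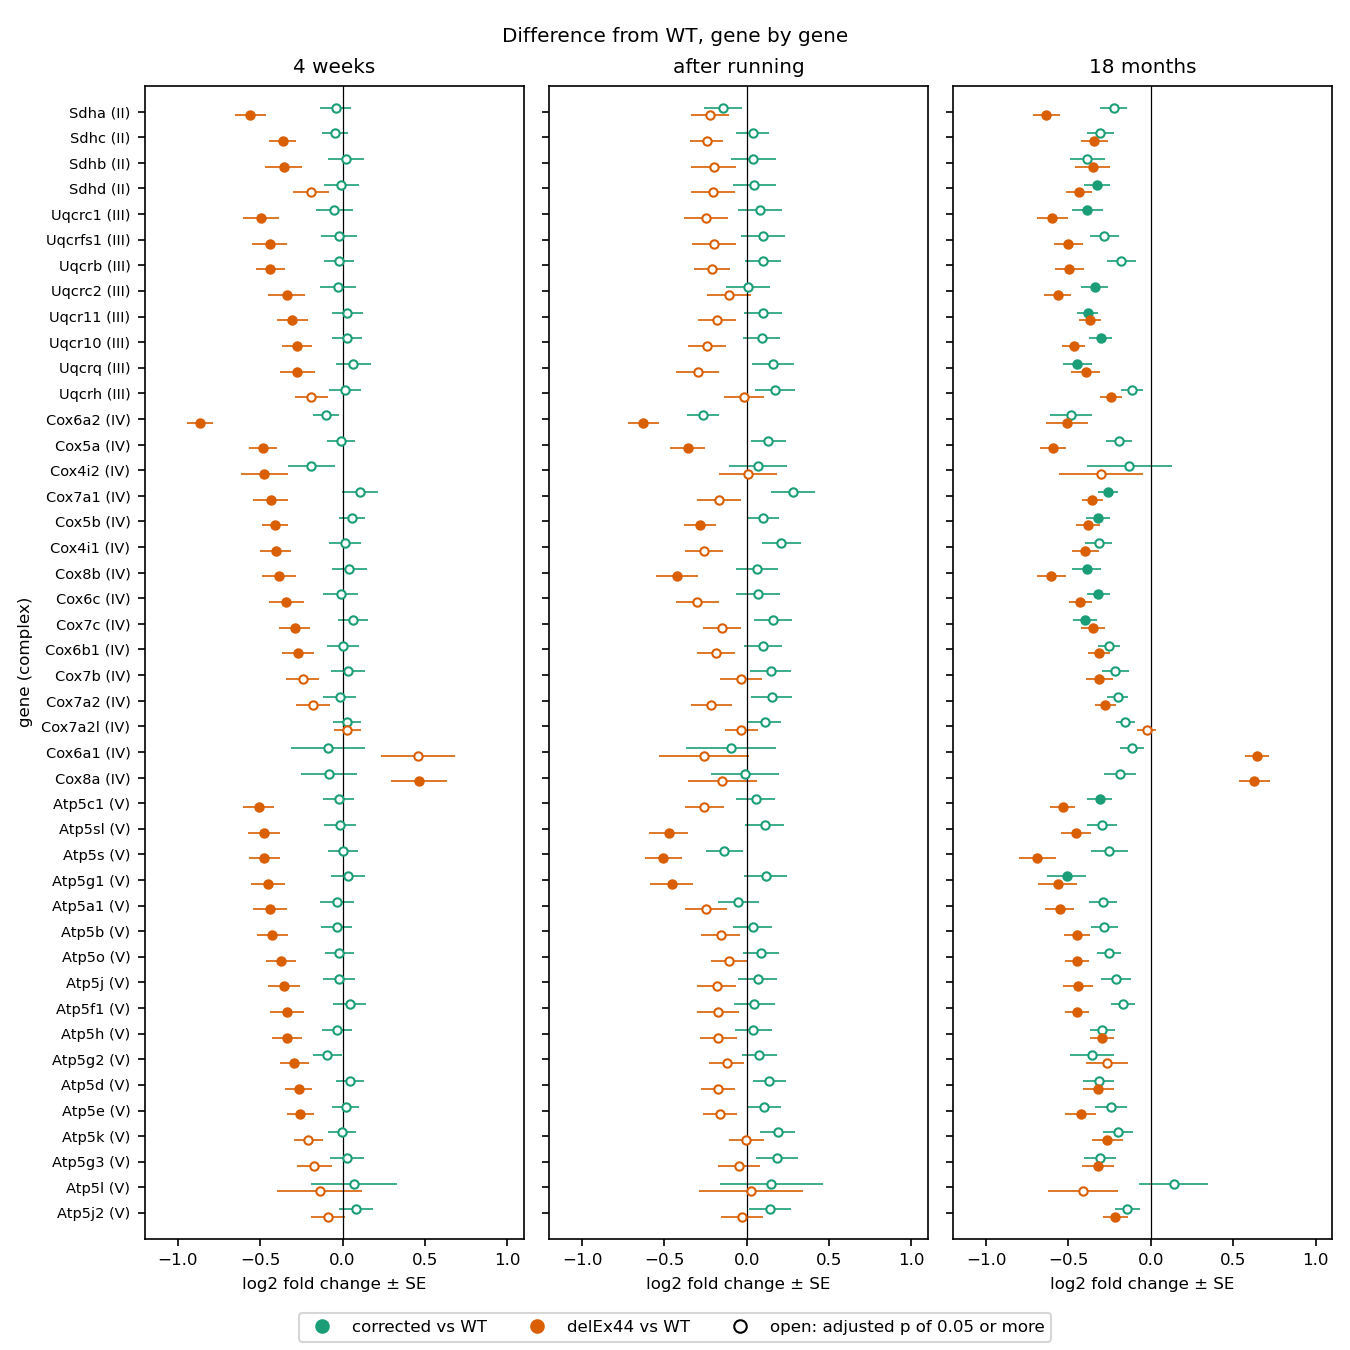
Log2 fold change (± SE) of each member against WT of the same stage for corrected (upper point) and delEx44 (lower point) muscle, with panels for 4 weeks, after running and 18 months and open symbols at an adjusted p of 0.05 or more. With TMM scaling the delEx44 points lie left of 0 for 41 of 45 members at 4 weeks and 42 of 44 at 18 months, and the corrected points centre near 0 at 4 weeks and left of it at 18 months (median -0.29); with total counts the delEx44 median at 4 weeks was 0.06.

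At 18 months the members were lower in delEx44 than in WT in all 4 complexes with TMM scaling. In delEx44 against WT, 38 of 44 members fell and 2 rose, where 23.8% of all 14337 genes fell and 28.8% rose. All 4 members of complex II fell, all 8 of complex III, 11 of 15 of complex IV and 15 of 17 of complex V, with a median of -0.40 against 0.05 for all genes. Cox4i2, Cox7a2l, Atp5g2 and Atp5l did not pass. In 39 members every delEx44 library was below every WT library, against 29.8% of all genes. With total-count scaling the median of all genes was 0.35 and that of the members -0.10, with 9 lower and 3 higher. The gap was -0.45 with either scaling, since scaling shifts all genes nearly alike.

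Sdha had 954, 1129.6 and 1086 CPM in corrected muscle, 744, 839 and 801 CPM in delEx44 muscle and 1213, 1224 and 1267 CPM in WT muscle at 18 months. Its 3 genotypes did not overlap, with corrected between the others. Sdha fell in delEx44 against WT (-0.64 ± 0.08, adjusted p = 0.000166), was higher in corrected than in delEx44 (0.41 ± 0.08, adjusted p = 0.00279), and was at -0.22 ± 0.08 in corrected against WT (adjusted p = 0.126). Uqcrb had 264, 268 and 255 CPM in corrected muscle, 213, 213 and 206 CPM in delEx44 muscle and 257, 298 and 336 CPM in WT muscle, with delEx44 lowest and corrected and WT overlapping. Cox5a had 453, 529 and 464 CPM in corrected muscle, 344, 371 and 378 CPM in delEx44 muscle and 531, 542 and 579 CPM in WT muscle, again with corrected between the others. Atp5c1 had 713, 829 and 774 CPM in corrected muscle, 656, 647 and 678 CPM in delEx44 muscle and 911, 942 and 1016 CPM in WT muscle, without overlap between genotypes. Against WT, delEx44 gave -0.50 ± 0.09 for Uqcrb, -0.59 ± 0.08 for Cox5a and -0.53 ± 0.08 for Atp5c1 (adjusted p = 0.00111, 0.000191 and 0.000305).

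The muscle forms of complex IV were lower in every delEx44 and corrected library than in any WT library at this age. Cox6a2 had 227, 293 and 223 CPM in corrected muscle, 226, 271 and 233 CPM in delEx44 muscle and 393, 335 and 309.9 CPM in WT muscle. Cox8b had 118, 146 and 127 CPM in corrected muscle, 105, 123 and 109 CPM in delEx44 muscle and 174, 169 and 169 CPM in WT muscle. Cox7a1 had 126, 139 and 129 CPM in corrected muscle, 117, 129 and 122 CPM in delEx44 muscle and 159, 158 and 154 CPM in WT muscle. In all 3 genes the corrected libraries overlapped the delEx44 libraries with corrected replicate 2 the highest of them. The muscle forms fell in delEx44 against WT, Cox6a2 by 0.51 (adjusted p = 0.00722), Cox8b by 0.60 (adjusted p = 0.000332) and Cox7a1 by 0.36 (adjusted p = 0.00104) on the log2 scale. In corrected against delEx44 they were at 0.03 ± 0.13, 0.21 ± 0.09 and 0.10 ± 0.06, none past the threshold (adjusted p = 0.892, 0.0735 and 0.251).

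The general forms Cox6a1 and Cox8a moved the other way. Cox6a1 had 15.6, 13.8 and 15.7 CPM in corrected muscle, 25.9, 24.6 and 25.8 CPM in delEx44 muscle and 16.6, 16.1 and 16.0 CPM in WT muscle. Cox8a had 15.6, 15.5 and 16.1 CPM in corrected muscle, 30.3, 28.1 and 25.0 CPM in delEx44 muscle and 18.7, 19.2 and 15.9 CPM in WT muscle. In both genes every delEx44 library was above all others, and corrected libraries were at or below the WT level. Both rose in delEx44 against WT, Cox6a1 by 0.65 ± 0.07 (adjusted p = 8.30e-05) and Cox8a by 0.63 ± 0.09 (adjusted p = 0.000404), and both were lower in corrected than in delEx44, at -0.76 ± 0.07 (adjusted p = 5.95e-05) and -0.82 ± 0.09 (adjusted p = 0.000149). Cox7a2 had 136, 156 and 151 CPM in corrected muscle, 135, 142 and 144 CPM in delEx44 muscle and 171, 169 and 170.4 CPM in WT muscle, and fell in delEx44 against WT (-0.28 ± 0.06, adjusted p = 0.00504; 0.03 with total-count scaling). White adipocyte markers summed to 419 to 679, 1514 to 1837 and 674 to 761 CPM in corrected, delEx44 and WT libraries, with 5 of 7 higher in delEx44 than in WT. The white adipocyte sums overlapped at 4 weeks, with 0 of the 7 higher in delEx44 than in WT. The 5 brown adipocyte markers at 18 months summed to 6.00 to 7.60, 20.2 to 34.0 and 5.21 to 8.10 CPM in corrected, delEx44 and WT libraries. In the delEx44 libraries Ucp1 was at 0 and Dio2 at 15.0 to 27.9 CPM. At 18 months 8 of 8 fibroblast markers and 7 of 7 immature fibre markers were higher in delEx44 than in WT too, and 7 of 8 and 7 of 7 were lower in corrected than in delEx44. The part of these cells in the levels of Cox6a1 and Cox8a was not tested.

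Corrected against delEx44 at 18 months gave 7 members higher and 2 lower, where 19.6% of all genes were higher and 21.4% lower. The 7 were Sdha, Uqcrb, Cox5a, Atp5s and the ATP synthase genes Atp5f1, Atp5a1 and Atp5c1, from 0.23 to 0.44 on the log2 scale, and the 2 were Cox6a1 and Cox8a. The members' median was 0.10 and that of all genes -0.03; with total-count scaling 0 were higher and 16 lower, with medians of -0.17 and -0.30. Without delEx44 replicate 1 the total was 5, and without corrected replicate 1 it was 15. Atp5c1 did not pass in 5 of the 6 fits that left out 1 library (adjusted p 0.0516 to 0.118) and was at -0.050 with total-count scaling. Uqcrb did not pass without delEx44 replicate 3 (adjusted p = 0.0598), and Atp5s not without delEx44 replicate 1 (adjusted p = 0.0525). The fibre markers summed to 133894 to 146452, 67945 to 83115 and 144484 to 156210 CPM and the macrophage markers to 426 to 1379, 1220 to 1316 and 369 to 488 CPM in corrected, delEx44 and WT libraries. Of the 12 fibre markers 9 were lower in delEx44 than in WT and 9 higher in corrected than in delEx44, whereas of the macrophage markers 11 were higher in delEx44 than in WT and 1 higher in corrected than in delEx44; their part in the members' levels was not tested.

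Corrected muscle at 18 months had 13 members below WT and 0 above, where 2.43% of all genes were lower and 2.34% higher. These were Sdhd, the complex III genes Uqcrc1, Uqcrc2, Uqcr10, Uqcr11 and Uqcrq, the complex IV genes Cox5b, Cox6c, Cox7a1, Cox7c and Cox8b, and Atp5c1 and Atp5g1. Their log2 fold changes lay between -0.51 (Atp5g1) and -0.26 (Cox7a1). Of all 44 members 43 were below 0, all but Atp5l, with a median of -0.29, and 36 had every corrected library below every WT library, against 12.9% of all genes. Cox6a2 was at -0.48 ± 0.13 (adjusted p = 0.057) and, without corrected replicate 2, the library with the most slow fibre and the fewest macrophage markers of its group, at -0.62 (adjusted p = 0.00249). The calls depended on single mice, with 30 members without corrected replicate 2, 1 without corrected replicate 3, and 0 without corrected replicate 1 or without any 1 of the WT mice; with only these 2 groups in the fit 0 passed, and with total-count scaling 6 were lower. The 7 immature fibre markers summed to 165 to 287, 501 to 529 and 59.0 to 63.4 CPM in corrected, delEx44 and WT libraries at 18 months, and 7 of 7 were higher in corrected than in WT; their part in the members' levels was not tested.

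Summed over complexes II to V, the members took, with TMM scaling, 20276 to 22293, 15500 to 17473 and 19250 to 22957 CPM at 4 weeks in corrected, delEx44 and WT libraries, and 13720 to 16403, 12898 to 13719 and 18175 to 18742 CPM at 18 months. At 4 weeks the corrected libraries lay within the range of WT, and at 18 months they lay below every WT library, with the lowest at the level of the highest delEx44 library. As plain shares of the counts of a library, without TMM factors, the order was another. The members held 1.92 to 2.07%, 1.83 to 1.99% and 1.76 to 2.08% of counts at 4 weeks in corrected, delEx44 and WT libraries, which overlapped. At 18 months they held 1.28 to 1.51%, 1.52 to 1.54% and 1.63 to 1.75%, with every corrected library below every delEx44 library.

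Whether the corrected and delEx44 groups differed by the same amount at both ages was tested as an interaction in the 18 sedentary libraries. In 4 of 45 members the difference at 18 months was below that at 4 weeks, and in 0 above, where 8.12% of all 14937 genes were below and 7.75% above. Cox6a2 was 0.77 higher in corrected at 4 weeks and 0.03 at 18 months on the log2 scale, with an interaction of -0.71 ± 0.15 (adjusted p = 0.00531). Cox5b was at 0.46 and 0.06 at the 2 ages (-0.38 ± 0.10, adjusted p = 0.0192), Cox7a1 at 0.54 and 0.10 (-0.42 ± 0.11, adjusted p = 0.0213), and Cox7c, a small subunit without tissue forms, at 0.35 and -0.05 (-0.37 ± 0.11, adjusted p = 0.0343). Cox7c had 183, 173 and 188 CPM in corrected muscle, 140.2, 131 and 155 CPM in delEx44 muscle and 168, 189.6 and 163 CPM in WT muscle at 4 weeks, with delEx44 lowest. It had 92.5, 112 and 101 CPM in corrected muscle, 104, 107 and 104 CPM in delEx44 muscle and 128, 139 and 136 CPM in WT muscle at 18 months, where corrected overlapped delEx44. The number of members was 2 without delEx44 4-week replicate 1, corrected 4-week replicate 3 or delEx44 18-month replicate 2, 1 without corrected 18-month replicate 1 and 13 without corrected 18-month replicate 2. Cox7a1 did not pass in the first 4 of these 5 (adjusted p 0.0511 to 0.0526), and Cox5b not without corrected 18-month replicate 1 (adjusted p = 0.0503).

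The same test for delEx44 against WT had 0 of 45 members past the threshold in edgeR's test and 0 in DESeq2's Wald test. Of all genes, 10.9% passed in edgeR. At an unadjusted p under 0.05 there was 1 member, against 3810 of all 14937 genes. Cox6a2 was at 0.34 ± 0.15 (adjusted p = 0.166), with a deficit of 0.87 at 4 weeks and 0.51 at 18 months on the log2 scale. Ages were taken from separate tables, so batch and age cannot be told apart here.

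Run mice at 8 weeks had higher levels of a set of members than sedentary mice at 4 weeks in each genotype. In corrected muscle 14 of 45 members rose, where 12.3% of all genes rose and 13.5% fell; in delEx44 20 rose, where 16.4% rose and 19.3% fell; and in WT 10 rose, where 13.4% rose and 14.2% fell. In each genotype 0 members fell in edgeR's test and in DESeq2's Wald test. The members' medians were 0.22, 0.27 and 0.15 in corrected, delEx44 and WT muscle.

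Atp5e, the epsilon subunit of the ATP synthase, changed most in each genotype. It had 404 and 348 CPM in corrected run mice, against 228, 214 and 231 CPM at 4 weeks. It had 337 and 287 CPM in delEx44 run mice, against 181, 174 and 202 CPM at 4 weeks. It had 341 and 357 CPM in WT run mice, against 226, 229 and 209.9 CPM at 4 weeks. Run and 4-week libraries did not overlap in any genotype, and the log2 fold changes were 0.75 ± 0.09, 0.75 ± 0.09 and 0.66 ± 0.09 (adjusted p = 0.000236, 0.000127 and 0.000341) in corrected, delEx44 and WT. Sdhc, Uqcr10, Cox7a1, Cox8b, Atp5d, Atp5g1, Atp5g2 and Atp5sl also passed in all 3 genotypes. Cox7a1 rose by 0.58, 0.67 and 0.40, and Cox8b by 0.42, 0.36 and 0.40 on the log2 scale. Some of these calls did not pass without single 4-week mice. Without WT replicate 3, Cox7a1, Cox8b, Sdhc, Atp5g1 and Atp5g2 did not pass in WT (edgeR adjusted p 0.050 to 0.123). Atp5g1 and Atp5g2 did not pass there without WT replicate 1 (0.0783 and 0.0804), nor Atp5g2 without replicate 2 (0.0545). Cox8b and Atp5g1 did not pass in delEx44 without its replicate 1 or 2 (0.074 to 0.0906), or in corrected without its replicate 2 (0.0659 and 0.0602). Leaving out a run mouse leaves 1 in its group, and some calls did not pass then. Without delEx44 run replicate 1 these included Cox8b (0.21), Uqcr10 (0.30) and Atp5g1 (0.17) in delEx44. Without corrected run replicate 1 they included Sdhc (0.38), Uqcr10 (0.41), Cox7a1 (0.50), Cox8b (0.36), Atp5g1 (0.41) and Atp5g2 (0.31) in corrected. Without WT run replicate 2 they included Sdhc (0.27), Uqcr10 (0.38), Cox7a1 (0.34), Cox8b (0.38), Atp5g1 (0.25), Atp5g2 (0.27) and Cox6a2 (0.32) in WT. Cox6a2 rose in delEx44 (0.65 ± 0.09, adjusted p = 0.000176) and WT (0.41 ± 0.09, adjusted p = 0.00387) and was at 0.25 ± 0.09 in corrected (adjusted p = 0.0513).

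**Figure D5:**
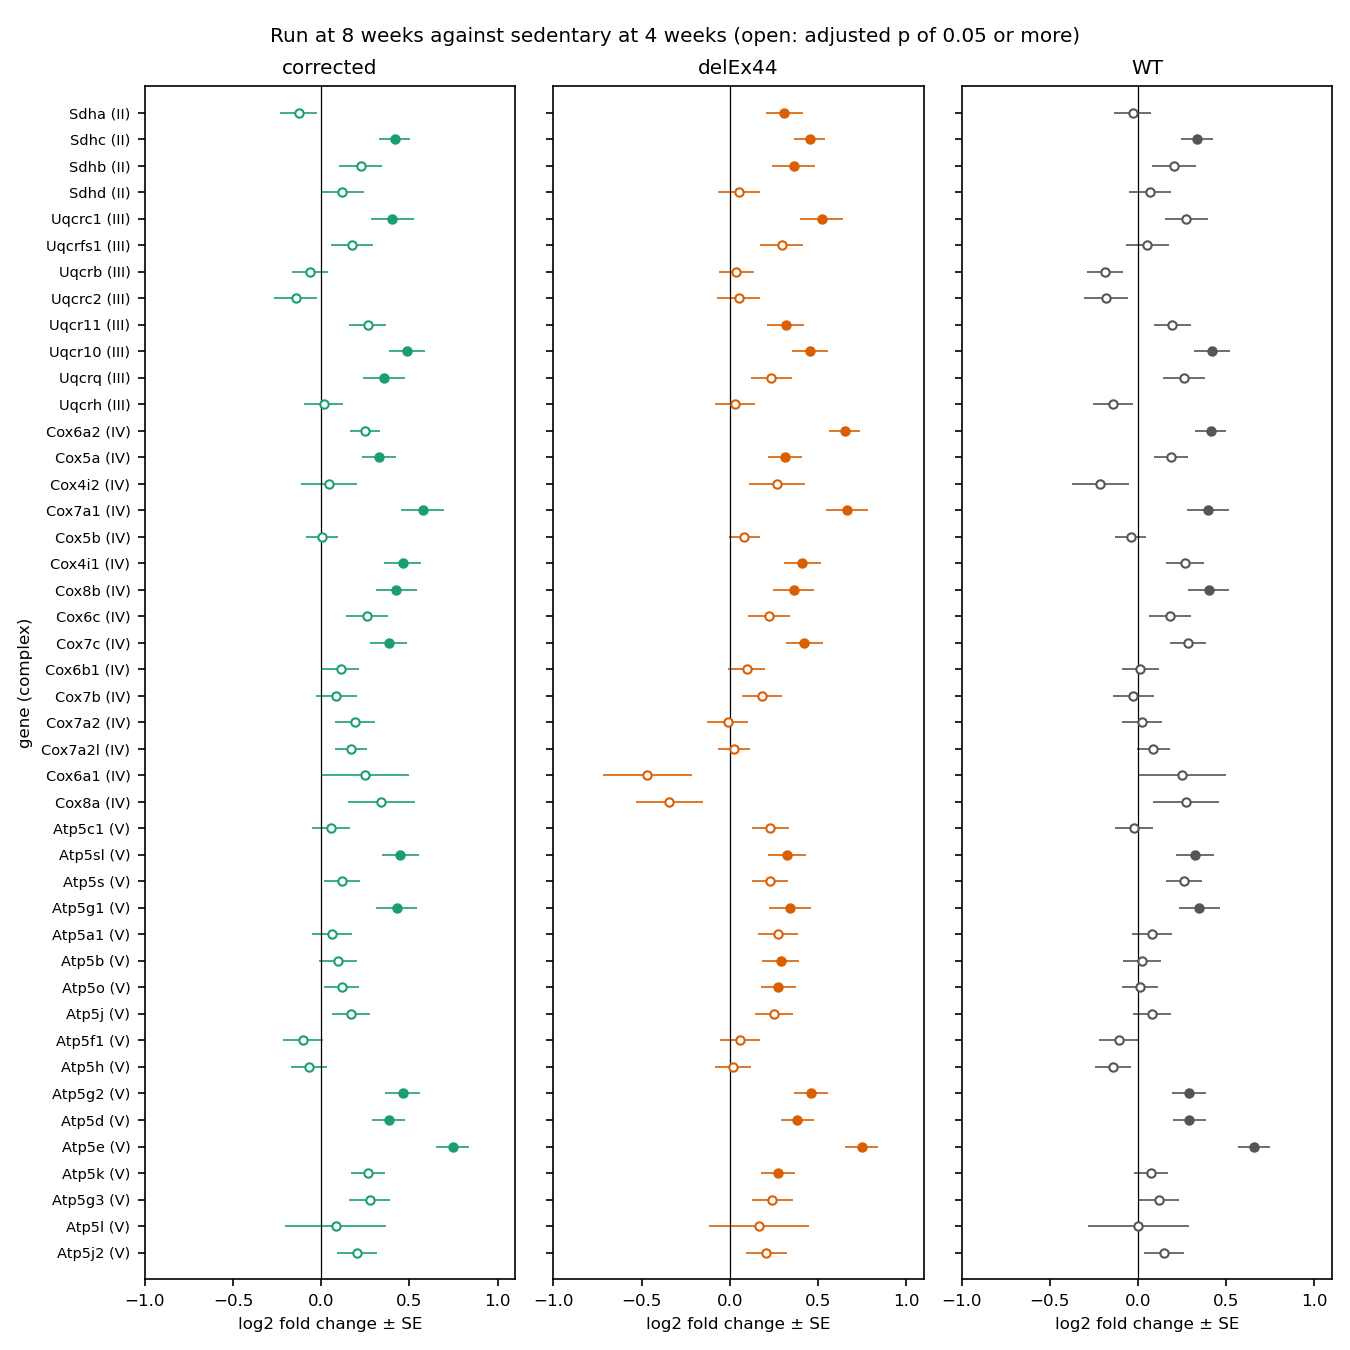
Log2 fold change (± SE) of each member in run mice at 8 weeks against sedentary mice at 4 weeks, with panels for corrected, delEx44 and WT and open symbols at an adjusted p of 0.05 or more. Atp5e lies furthest right in each panel (0.75, 0.75 and 0.66), and Cox6a1 and Cox8a lie left of 0 in delEx44 without passing the test.

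Differences between genotypes in the change from 4 weeks to the run stage were tested as interactions. For delEx44 against WT 0 members passed in edgeR's test and 0 in DESeq2's test, where 0.879% of all genes passed in edgeR. For corrected against delEx44 0 passed in edgeR's test and 1 in DESeq2's test, where 1.42% of all genes passed in edgeR. At an unadjusted p under 0.05 there were 2 and 3 members, against 2642 and 2763 of all 15013 genes. Cox8a, which averaged 55.4, 50.4 and 55.8 CPM after running and 43.7, 63.8 and 46.3 CPM at 4 weeks in corrected, delEx44 and WT, had interactions of -0.61 ± 0.27 and 0.68 ± 0.27 (adjusted p = 0.263 and 0.202). Counts of the run comparison fell in WT to 3 without 4-week replicate 3 or run replicate 2 and to 4 without run replicate 1, in delEx44 to 10 without 4-week replicate 1 or 2 and to 5 without run replicate 1, and in corrected to 8 without 4-week replicate 2 and 1 without run replicate 1. Of the 3 in WT without run replicate 2, 1 was among the 10 called with all libraries, and the others were Cox6a1 (0.66) and Cox8a (0.61), in which the remaining run replicate 1 was high. With total-count scaling 18, 10 and 17 members rose and 0 fell in corrected, delEx44 and WT.

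Genes that build, feed or regulate these complexes were read from lists chosen with earlier results of these data known, as counts only. Of all genes 25.0% were lower in delEx44 against WT at 4 weeks and 23.8% at 18 months. Of 4 subunits named otherwise (Cyc1, Ndufa4, Usmg5 and 2010107E04Rik), delEx44 muscle was below WT past the threshold for 2 at 4 weeks and for 4 at 18 months. Of 5 complex III assembly factors, 4 and 5 were lower, among them Uqcc1 (-0.58 at 4 weeks) and Ttc19 (-0.42). Of 21 complex IV assembly factors, 9 were lower at 4 weeks and 12 at 18 months, among them Cox10 (-0.53 at 4 weeks), which makes heme O, and Coa7 (-0.55). Complex II factors gave 0 and 1 of 2. Median log2 fold changes at 4 weeks were -0.30 for the otherwise named subunits, -0.42 for complex III factors and -0.18 for complex IV factors, against -0.00 for all genes.

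Here too some genes stood the other way. Atpif1, the inhibitor of the ATP synthase, rose in delEx44 against WT by 0.78 at 4 weeks and 0.44 at 18 months while the other 4 genes of its list fell. Of 8 genes for cytochrome c and ATP export, 6 fell at 4 weeks and 7 at 18 months. The muscle and heart ADP/ATP carrier gene Slc25a4 was at -0.62 and -0.69 and the outer membrane channel gene Vdac1 at -0.71 and -0.79, whereas the carrier form Slc25a5 of proliferating tissues rose by 0.64 and 0.72 at the 2 ages. In corrected against delEx44, Atpif1 was at -0.82 and Slc25a5 at -0.86 at 4 weeks, and at -0.32 and -0.41 at 18 months, all past the threshold. Among 8 regulators of respiratory genes 2 fell at 4 weeks, Esrra (-0.45, adjusted p = 0.00174) and Tfam (-0.20, adjusted p = 0.0262), and 3 at 18 months, which at 4 weeks is the share of all genes. These directions use TMM scaling, under which the members' median at 4 weeks was -0.34 and without which it was 0.06.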

How the data were processed

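RNA-seq counts per gene of 24 quadriceps libraries came as 2 tables, which the authors deposited as raw counts; per the submitters' processing notes edgeR, HTSeq, SAMtools 1.9, Trim Galore, STAR 2.7.2b and Bowtie2 2.3.4.3 were named with build mm10, and their roles, annotation and strand setting were not given in the sources used here. The 5 records that name no gene, 27.4 to 34.2% of all counts in the younger table and 42.2 to 48.3% in the 18-month table, were left out. Members were chosen by symbol, and the members and lists were chosen with earlier results of these data known. Counts were tested with edgeR 4.0.16 (R 4.3.3, limma 3.58.1), with TMM factors, the default filter on low counts and a quasi-likelihood test with 1 mean per group, in 3 fits: 15 younger libraries (15013 genes), 9 libraries of 18 months (14337) and 18 sedentary libraries (14937). Benjamini-Hochberg adjustment ran over all genes of each fit. The 6 tissue-form genes and, for each complex, the 2 other members with the smallest p in delEx44 against WT at 4 weeks are given by library; others are named where they go against the rest or miss the threshold. Ratios used counts + 0.5 and permuted genotypes within the 3 stages in all 2400 arrangements. Of the WT 18-month columns, 2 are known by group only. DESeq2 1.42.0, other scalings, filters, fits and left-out libraries were alternatives. The fits were tested on simulated data. In the 18-month corrected and delEx44 groups, no pairing of mice by replicate number was seen, which does not exclude one. The tests use the spread between mice, estimated over all groups of a fit, and levels are not compared between the 2 tables, which were scaled apart.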

Additional observations from a re-analysis of the deposited data

Results flagged for a closer look

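The difference between corrected and delEx44 muscle was not the same at 4 weeks and 18 months in 4 members of complex IV, by the interaction test of edgeR over the 18 sedentary libraries. The interaction was -0.71 for Cox6a2, -0.38 for Cox5b, -0.42 for Cox7a1 and -0.37 for Cox7c on the log2 scale, in each gene with a lower difference of corrected minus delEx44 at 18 months, which in Cox7c was -0.05. These 4 of 45 members stand beside 8.12% of all genes with an interaction below 0 that passed, a share close to theirs. Vector dose, vector form, age and table cannot be told apart in this comparison. Leaving out 1 library at a time gave 1 to 13 members. Cox7a1 did not pass without delEx44 4-week replicate 1, corrected 4-week replicate 3, delEx44 18-month replicate 2 or corrected 18-month replicate 1 (edgeR adjusted p 0.0511 to 0.0526), and Cox5b not without the last of these (0.0503). The highest number, 13, came without corrected 18-month replicate 2, which had 1534 CPM of slow fibre markers against 142 and 424 CPM and 426 CPM of macrophage markers against 976 and 1379 CPM in the other corrected mice of that age. The part of slow fibres and macrophages was not tested.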

How the results depend on the processing

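Scaling, the spread shared between groups and single mice limited the counts of members past the threshold. With total counts and no TMM factor the counts were 5 for delEx44 against WT and 5 for corrected against delEx44 at 4 weeks, 3 and 7 after running, 12 and 16 at 18 months, 6 for corrected against WT at 18 months, and 17 in WT and 10 in delEx44 for run against 4 weeks. With only the compared groups in the fit they were 2 for delEx44 against WT and 0 for corrected against delEx44 after running, 12 for run delEx44, 0 for corrected against WT at 18 months and 8 for the age interaction of corrected against delEx44, which gave 7 with no filter on low counts. DESeq2's Wald test gave 19 for corrected against delEx44 after running, 15 at 18 months, 26 for corrected against WT at 18 months and 1 for the running interaction of corrected against delEx44. Without both WT libraries that stood apart, an alternative chosen after seeing the data, 2 members rose in run WT.

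Leaving out 1 library at a time gave 20 to 37 members at 4 weeks for delEx44 against WT, 23 to 34 for corrected against delEx44 and 0 for corrected against WT. After running the ranges were 2 to 14, 1 to 28 and 0 in the same order, and at 18 months 36 to 38, 5 to 15 and 0 to 30. Run against 4 weeks gave 1 to 14 in corrected, 5 to 26 in delEx44 and 3 to 9 in WT, the age interaction of corrected against delEx44 gave 1 to 13, and the other interactions 0. The log2 Cox6a2/Cox6a1 ratio ranged from -1.18 to -0.78, from 0.70 to 0.80 and from -0.41 to -0.017 in delEx44 against WT, corrected against delEx44 and corrected against WT. Cox7a1/Cox7a2 ranged from -0.11 to -0.075, 0.15 to 0.17 and 0.05 to 0.09, and Cox8b/Cox8a from -0.95 to -0.67, 0.75 to 0.82 and -0.16 to 0.12, the last turning sign without WT run replicate 2 and 3 other WT libraries and never past the threshold. The Cox7a1/Cox7a2 difference of delEx44 and WT passed without WT run replicate 1 or delEx44 18-month replicate 2 (exact permutation adjusted p = 0.0113 and 0.0363).

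With total counts 16 of the named values that passed with one scaling or the other turned sign, relative to a median of all genes that this scaling also moved. For delEx44 against WT at 4 weeks these were Cox8b (0.0092), Sdhc (0.035), Atp5e (0.14), Uqcr10 (0.12) and Atp5g2 (0.10), and for corrected against delEx44 Sdhc (-0.0074), Atp5e (-0.048) and Uqcr10 (-0.017). At 18 months they were Cox7a2 (0.030) and Cox7a2l (0.28) for delEx44 against WT, and Cox7a1 (-0.18), Cox7a2 (-0.20), Sdhc (-0.24), Cox5b (-0.22), Atp5c1 (-0.050) and Atp5g3 (-0.26) for corrected against delEx44. Over 23 named genes, 4117 alternatives left 3790 calls on their side of the threshold, 243 weaker and 68 stronger. In 311 further cases, 63 of them with total counts and 203 with 1 library left out, a value past the threshold in neither fit differed in sign, such as Cox7a2 in delEx44 against WT at 4 weeks (0.22 with total counts).

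Ratio tests lost or gained calls where a stage was left out, which leaves fewer arrangements. Without the 4-week libraries the Cox6a2/Cox6a1 difference was -0.80 for delEx44 against WT and 0.49 for corrected against delEx44, Cox8b/Cox8a was -0.79 and 0.69, and Cox7a1/Cox7a2 was 0.056 for corrected against delEx44, none past the threshold. Without the run libraries Cox7a1/Cox7a2 was 0.20 for corrected against delEx44, not past it, and -0.17 for delEx44 against WT, past it. Without the 18-month libraries Cox6a2/Cox6a1 was -0.89 and Cox8b/Cox8a -0.60 for delEx44 against WT, not past it, and Cox8b/Cox8a was 0.073 for corrected against WT. Without both WT libraries that stood apart, Cox6a2/Cox6a1 was -0.46 and Cox8b/Cox8a -0.22 for corrected against WT and Cox7a1/Cox7a2 -0.13 for delEx44 against WT, all past it.

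With the replicate number as a block, corrected against delEx44 at 18 months gave 8 members in place of 9, and Cox8b was the 1 named gene gained (0.21, adjusted p = 0.0486). Same-numbered mice correlated at -0.04, 0.02 and -0.05, and mice of other numbers at -0.07 to 0.12. No pairing by number was seen, but so few values cannot exclude a shared litter or day. No paired analysis was possible because the other groups share no numbers that the labels tie to a mouse, litter or day.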
